A study of Homo sapiens with 7 samples.

Results

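The genes described here are transcriptional readouts of the ERK branch of MAPK signaling. They were chosen by name: 10 genes that ERK activity induces, among them phosphatases and adaptors that act back on the pathway (DUSP4, DUSP5, DUSP6, SPRY2 and SPRY4) and transcription factors and other early targets (ETV4, ETV5, PHLDA1, FOSL1 and EGR1). Every probe that the platform annotation used here names for a member was taken, which gave 14 probes of 9 genes, against 15060 probes of 11389 genes in the annotated set as a whole. The annotation used here covers only the probes of the deposited log2 values, which were detected on at least 1 array. It names no probe for DUSP4, which was not analysed here. Member probes outside that set were not looked for. Of the 9 genes, 5 were read by 2 probes (DUSP6, SPRY4, ETV4, ETV5 and PHLDA1) and 4 by 1 probe (DUSP5, SPRY2, FOSL1 and EGR1). The question was whether these levels differed between cells with and without doxycycline.

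ERK is the last kinase of a cascade that runs from growth factor receptors through RAS, RAF and MEK. Active ERK enters the nucleus and phosphorylates transcription factors of the ETS family, which together with the serum response factor switch on immediate early genes within minutes. Dual-specificity phosphatases then remove the activating phosphates from ERK, and Sprouty proteins restrain the cascade closer to the receptor, so that mRNA levels of these inhibitors are widely read as a measure of pathway output. MITF, a transcription factor of the melanocyte lineage, is itself a known substrate of ERK in melanocytes. The study induced its A isoform (MITFA), which the paper found to predominate in normal prostate, primary tumors and prostate cancer lines.

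The RNA came from PC3, an established human prostate cancer line first grown from metastatic bone tissue, transduced with a lentiviral TRIPZ cassette for doxycycline-inducible expression of HA-Flag-tagged MITFA. The cells without doxycycline (No dox, replicates 2, 3 and 4, n = 3) and with doxycycline (Dox, replicates 1 to 4, n = 4) both carried the cassette. No cells without the cassette were analysed here, so effects of doxycycline and of MITFA cannot be told apart. The dose and duration used for the arrays, and whether the line is a clone or a pool, were stated nowhere in the labels or methods. Neither source says that the arrays came from separate cultures. The p-values and intervals below therefore reflect array-to-array spread only, and that spread may be technical. Expression was read on Illumina HumanHT-12 v4 BeadChips, on which each probe of fixed sequence reports a transcript as the brightness of its beads. In bulk RNA, a change in the number of expressing cells cannot be told apart from a change in RNA per cell.

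Between 15562 and 16618 of 47323 probes had a detection p-value (the chance of such a signal among negative controls) under 0.01 on an array, and pairs of arrays correlated between 0.994 and 0.996 over the 19337 probes tested. Of 6 genes listed as markers of prostate epithelial lines, KRT8, KRT19 and EPCAM were detected on all 7 arrays and the cadherin CDH1 on 6, while KRT5 and KRT18 had no tested probe with their name. No tested probe was named for the 5 androgen receptor axis genes. Among markers of other cells, the lysosomal glycoprotein CD68 and a dim probe of PECAM1 were detected on all 7 arrays, and the collagens COL1A1 and COL1A2 on 1 and 5. MITF itself, at its annotated probe, averaged 6.82 ± 0.11 on the log2 scale without doxycycline (SD, n = 3) and 6.76 ± 0.12 with it (SD, n = 4). No source says whether this probe recognizes the cassette, and it cannot serve as a test of induction. The paper reports induction of MITFA by doxycycline in this line from qRTPCR and western blot, apart from the arrays.

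Promoter windows of RefSeq (GRCh38.p14), which run from 250 bases before to 50 bases after an annotated start, were found for 5 of the members. There were 7 windows, since SPRY2 had 3 starts. The windows were searched on both strands for 5 motifs. These were the CArG box bound by the serum response factor, the E-boxes CACGTG and CATGTG that MITF can bind, the AP-1 motif TGANTCA of the FOS and JUN family, and CCGGAA, a core of ETS sites. The 3 windows with a match are shown 5′ to 3′ on the strand of the gene, with the matches in capitals, because they carry the elements through which ERK is known to reach its targets (CArG boxes and ETS cores) and the only MITF-type E-box found.
EGR1, chr5:138465229-138465528, + strand: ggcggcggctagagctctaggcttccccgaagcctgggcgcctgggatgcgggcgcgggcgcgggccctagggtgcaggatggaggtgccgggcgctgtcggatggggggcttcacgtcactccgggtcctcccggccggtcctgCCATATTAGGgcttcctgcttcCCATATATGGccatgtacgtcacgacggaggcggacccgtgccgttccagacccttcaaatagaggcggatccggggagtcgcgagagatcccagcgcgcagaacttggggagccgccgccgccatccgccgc
SPRY2, most upstream start, chr13:80341077-80341376, - strand: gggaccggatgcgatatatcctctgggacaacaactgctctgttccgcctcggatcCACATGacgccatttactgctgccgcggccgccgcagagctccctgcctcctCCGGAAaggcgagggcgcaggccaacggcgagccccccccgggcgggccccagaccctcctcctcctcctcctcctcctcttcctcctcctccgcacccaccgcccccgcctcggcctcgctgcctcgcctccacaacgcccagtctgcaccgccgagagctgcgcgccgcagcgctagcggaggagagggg
PHLDA1, chr12:76031727-76032026, - strand: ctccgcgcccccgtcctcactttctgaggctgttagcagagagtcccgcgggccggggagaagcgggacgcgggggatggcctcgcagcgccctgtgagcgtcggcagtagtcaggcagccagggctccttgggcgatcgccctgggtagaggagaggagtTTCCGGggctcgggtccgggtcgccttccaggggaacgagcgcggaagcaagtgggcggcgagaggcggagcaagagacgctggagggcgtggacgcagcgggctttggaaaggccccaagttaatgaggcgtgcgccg
The EGR1 window held 2 CArG boxes, 105 to 96 and 83 to 74 bases before the start. A CArG box stood in 1.29% of all 35116 windows of this length. SPRY2 held a CATGTG match 194 to 189 bases before its most upstream start (read as CACATG on the strand shown) and a CCGGAA match 142 to 137 bases before it. CATGTG stood in 11.1% of all windows and CCGGAA in 17.2%. PHLDA1 held a CCGGAA match 89 to 84 bases before the start, read as TTCCGG on the strand shown. CACGTG (7.26% of all windows) and TGANTCA (7.71%) matched in none of the 7 windows. The other 4 windows, of DUSP6, SPRY4 and the other 2 starts of SPRY2, held no match, and the GC content of the 7 windows ran from 44.7% to 71.0%, against a median of 58.7% over all windows. A match describes the letters of the window and not a bound site.

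**Figure D1:**
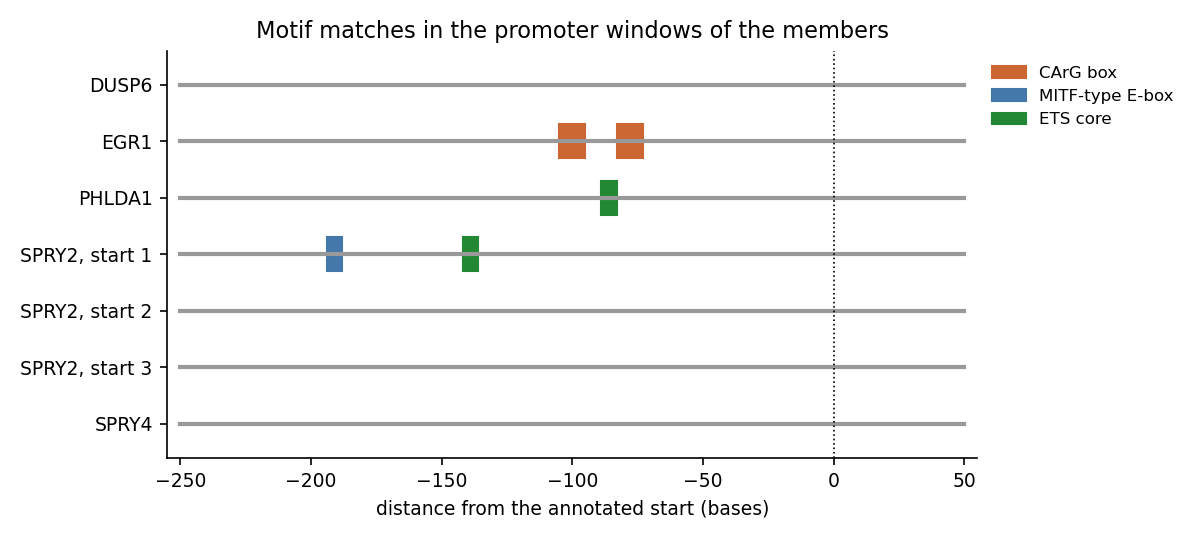
Positions of the motif matches in the 7 promoter windows of 5 members, in bases from the annotated start (dotted line); the bars of SPRY2 are numbered from the most upstream start. EGR1 carries 2 CArG boxes, SPRY2 an MITF-type E-box (CATGTG) and an ETS core, PHLDA1 an ETS core, and the other 4 windows have no match.

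The levels of these ERK targets in Dox lay close to those in No dox. Of the 14 probes, 0 passed an adjusted p under 0.05 from limma, where 0.134% of the 19337 tested probes did (26 probes, all higher in Dox). The smallest adjusted p among the members was 0.524. At an unadjusted p under 0.05 there were 2 of 14 (a DUSP6 and an SPRY4 probe), against 8.50% of all tested probes. Both were higher in Dox, as 4.49% of all tested probes were at that threshold. The authors' log2 values likewise called 0 of 14 with limma, 2 of 14 had an unadjusted p under 0.05, and the smallest adjusted p was 0.317. In all, 11 probes had a log2 fold change above 0 and 3 below, with a median of 0.065 (range −0.073 to 0.29). Of all tested probes, 49.7% were above 0, with a median of −0.00085. The count of 11 includes EGR1 and the dim SPRY4 probe, both near background, and 5 genes enter the 14 with 2 probes each. With the brightest probe standing for a gene, 6 of 9 genes were above 0, with a median of 0.074. The groups did not overlap at 2 probes, both with Dox higher, a pattern that 5.07% of all tested probes showed in that direction, 4.24% in the other and 9.30% in either. All values below are log2 signals after background correction and quantile normalization, in which 1 unit is a doubling of signal.

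The array-to-array spread allowed bounds on the difference in signal. If that spread is technical, the bounds may be too narrow for a difference between cultures. Of the members, 12 probes were detected on all 7 arrays, and their SD within a group lay between 0.032 and 0.24. For each of these 12 the 95% interval of the fold change lay inside 1.5-fold in both directions, as it did for 98.7% of the 14090 tested probes detected on all arrays. Among all tested probes, dim ones included, the share was 97.8%. EGR1 and the dim SPRY4 probe were at or near background, where the signal does not bound a fold. Such bounds are shared by most genes on these arrays. They are not adjusted for the number of probes.

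**Figure D2:**
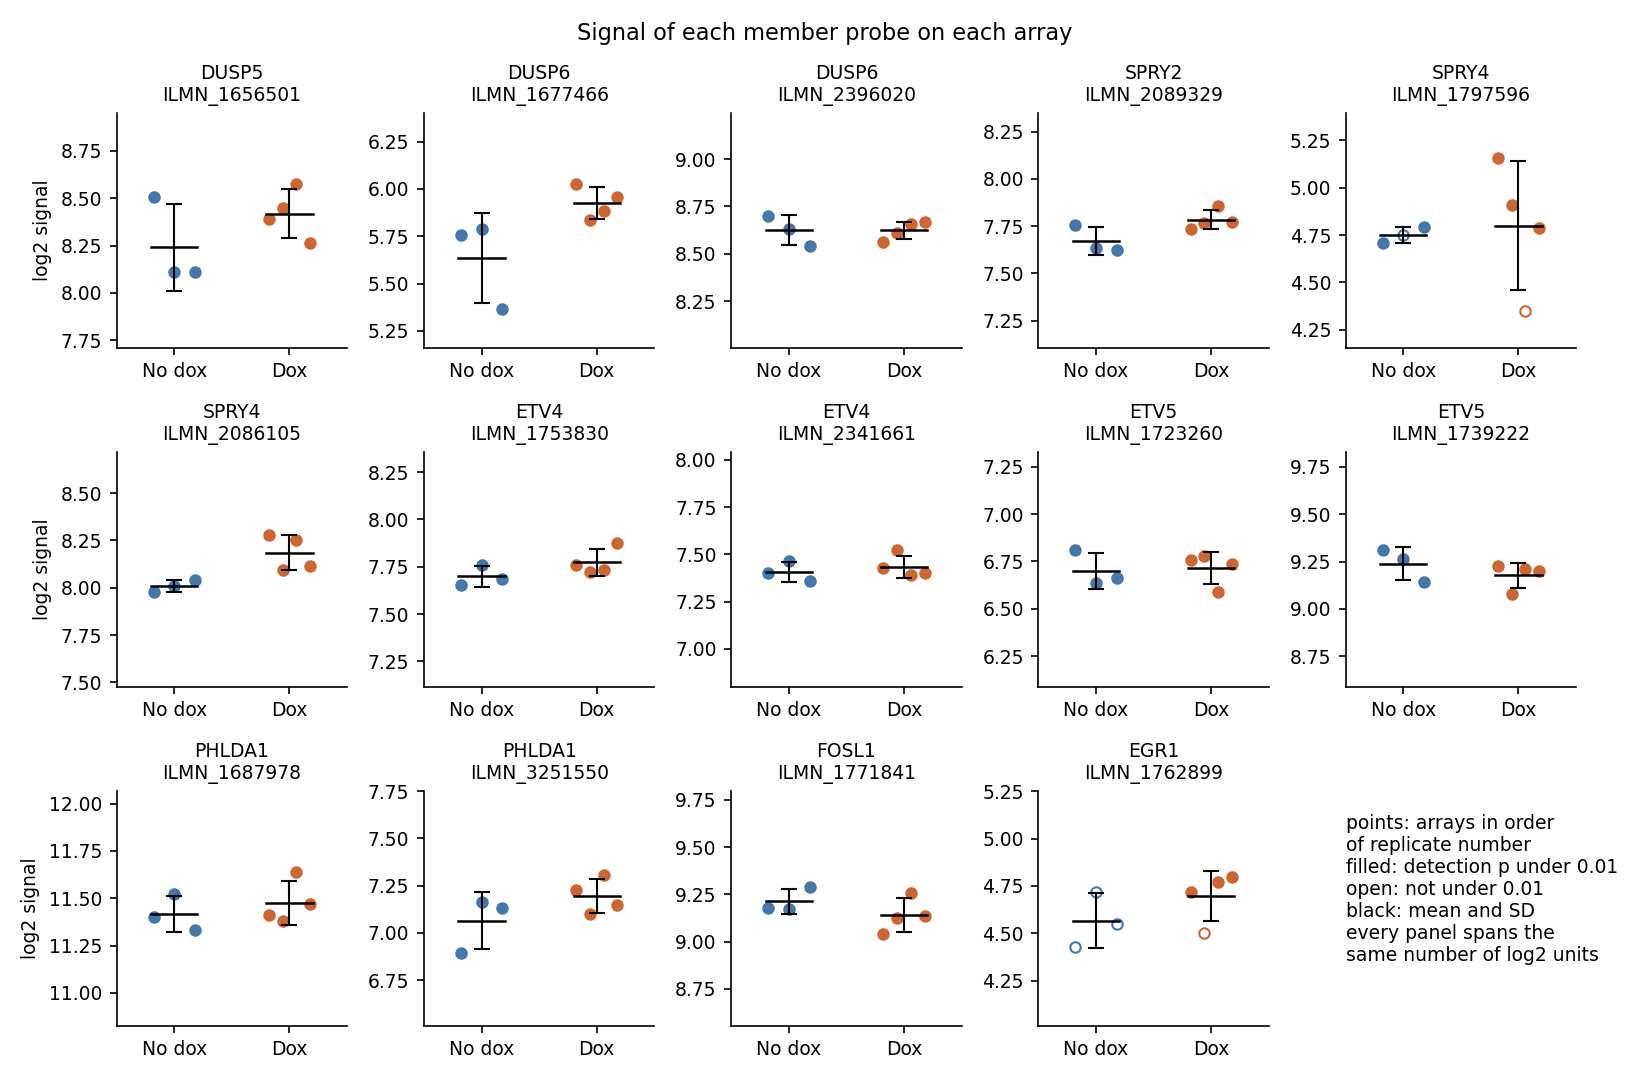
Log2 signal (y axis) of the 14 member probes on the 3 No dox (blue) and 4 Dox (orange) arrays; black bars give the mean and SD, open points have a detection p of 0.01 or more, and every panel spans the same number of log2 units. The groups overlap in 12 panels and stand apart at DUSP6 ILMN_1677466 and SPRY4 ILMN_2086105.

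The phosphatases held the largest difference among the members, which was at a dim probe and did not pass the test. DUSP6, a cytoplasmic phosphatase specific for ERK and the member most often used to read ERK activity, was measured by 2 probes that the annotation assigns to different RefSeq transcripts. The brighter probe (ILMN_2396020) had log2 signals of 8.70, 8.63 and 8.54 on the No dox arrays (replicates 2, 3 and 4) and 8.56, 8.61, 8.65 and 8.67 on the Dox arrays (replicates 1 to 4). The group means were 8.62 and 8.62, and the groups overlapped throughout. The log2 fold change was −0.0014 (95% interval −0.16 to 0.16, adjusted p = 0.996 from limma).

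The dimmer DUSP6 probe (ILMN_1677466) had log2 signals of 5.76, 5.79 and 5.36 in No dox and 6.03, 5.83, 5.89 and 5.96 in Dox. Every Dox array lay above every No dox array and No dox replicate 4 was the lowest of all 7. The intensities before processing ran from 109 to 133 and included the lowest of the well-detected member probes. Those of EGR1, near background, ran from 88 to 95. The log2 fold change was 0.29 (95% interval 0.050 to 0.53, adjusted p = 0.524 from limma; p = 0.0286 by an exact two-sided permutation test, the minimum over 35 splits). Without No dox replicate 4 it was 0.16, and on the authors' log2 values 0.13. The difference between the 2 DUSP6 probes within an array moved by 0.29 from No dox to Dox (p = 0.0286 by the same exact test, the smallest it can give). Adjusted over the 5 genes with 2 probes this p is 0.143, and since no single pair could have gone lower, the adjusted test could not pass for DUSP6 alone.

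DUSP5, a nuclear phosphatase that binds and inactivates ERK, had log2 signals of 8.51, 8.11 and 8.11 in No dox and 8.39, 8.45, 8.58 and 8.26 in Dox. No dox replicate 2 lay above 3 of the 4 Dox arrays, while the other No dox arrays lay below all of them. The log2 fold change was 0.18 (95% interval −0.078 to 0.43, adjusted p = 0.712 from limma), and 0.31 without No dox replicate 2, where the adjusted p still missed the threshold.

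The Sprouty genes showed small differences. SPRY4, an inhibitor of receptor-to-RAS signaling, had log2 signals at its brighter probe (ILMN_2086105) of 7.98, 8.01 and 8.04 in No dox and 8.28, 8.09, 8.25 and 8.12 in Dox. The No dox arrays lay close together, and all 4 Dox arrays were above them. The log2 fold change was 0.18 (95% interval 0.0084 to 0.34), with an adjusted p of 0.571 from limma and 0.0571 in an exact two-sided permutation test. The dim SPRY4 probe (ILMN_1797596) was detected on 2 of 3 No dox and 3 of 4 Dox arrays. Its log2 signals were 4.71, 4.75 and 4.79 in No dox and 5.16, 4.91, 4.35 and 4.79 in Dox, so Dox held both the highest and the lowest array (log2 fold change 0.051, adjusted p = 0.957 from limma).

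SPRY2, the other Sprouty member, also works at the level of RAS activation and binds the ubiquitin ligase CBL. Its log2 signals were 7.76, 7.64 and 7.62 in No dox and 7.74, 7.77, 7.86 and 7.77 in Dox. Only No dox replicate 2 reached into the Dox range. The log2 fold change of 0.11 (95% interval −0.046 to 0.27) had an adjusted p of 0.708 from limma.

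The ETS factors ETV4 and ETV5, whose mRNAs follow FGF and ERK signaling and which are rearranged in some prostate cancers, had small differences at all 4 of their probes. At ETV4 ILMN_1753830 the log2 signals were 7.65, 7.76 and 7.68 in No dox and 7.76, 7.72, 7.73 and 7.88 in Dox. At ETV4 ILMN_2341661 they were 7.40, 7.46 and 7.36 in No dox and 7.43, 7.52, 7.39 and 7.40 in Dox. The groups overlapped at both ETV4 probes, with log2 fold changes of 0.074 and 0.027.

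ETV5 was read at a bright probe (ILMN_1739222), with log2 signals of 9.31, 9.26 and 9.14 in No dox and 9.22, 9.08, 9.21 and 9.20 in Dox, and at a dimmer one (ILMN_1723260), with 6.81, 6.63 and 6.66 in No dox and 6.76, 6.78, 6.59 and 6.74 in Dox. The log2 fold changes of −0.061 and 0.015 had opposite signs. The adjusted p-values from limma over the 4 ETV4 and ETV5 probes ran from 0.819 to 0.977, and no interval reached beyond 1.18-fold upward.

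PHLDA1, a pleckstrin homology-like domain protein induced by growth factors, gave the brightest signals at one of its probes and a much dimmer signal at the other. The brighter probe (ILMN_1687978) had log2 signals of 11.40, 11.52 and 11.33 in No dox and 11.41, 11.38, 11.64 and 11.47 in Dox. The dimmer probe (ILMN_3251550) had 6.89, 7.17 and 7.13 in No dox and 7.23, 7.10, 7.31 and 7.15 in Dox. Dox replicate 3 was the highest array at both probes, and the groups overlapped at both. The log2 fold changes were 0.056 (adjusted p = 0.892 from limma) and 0.13 (adjusted p = 0.723).

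Of the early transcription factors, FOSL1 (FRA1), the AP-1 subunit that persists under sustained ERK activity, was well above background. Its log2 signals were 9.18, 9.17 and 9.29 in No dox and 9.04, 9.13, 9.26 and 9.14 in Dox. It had the lowest log2 fold change of the members, −0.073 (95% interval −0.24 to 0.097, adjusted p = 0.833 from limma), with Dox replicate 3 above 2 of the 3 No dox arrays.

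EGR1, the zinc finger factor whose promoter window held the CArG boxes shown above, was near background. Its detection p-value was under 0.01 on 0 of 3 No dox arrays and on 3 of 4 Dox arrays (replicates 1, 3 and 4). The log2 signals were 4.43, 4.72 and 4.55 in No dox and 4.72, 4.50, 4.77 and 4.79 in Dox. The lowest detected signal of the No dox arrays averaged 4.71 on this scale, above the Dox mean of 4.70, so no lower bound on a fold change could be given. A difference in EGR1 was not detectable at this signal (adjusted p = 0.75 from limma).

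**Figure D3:**
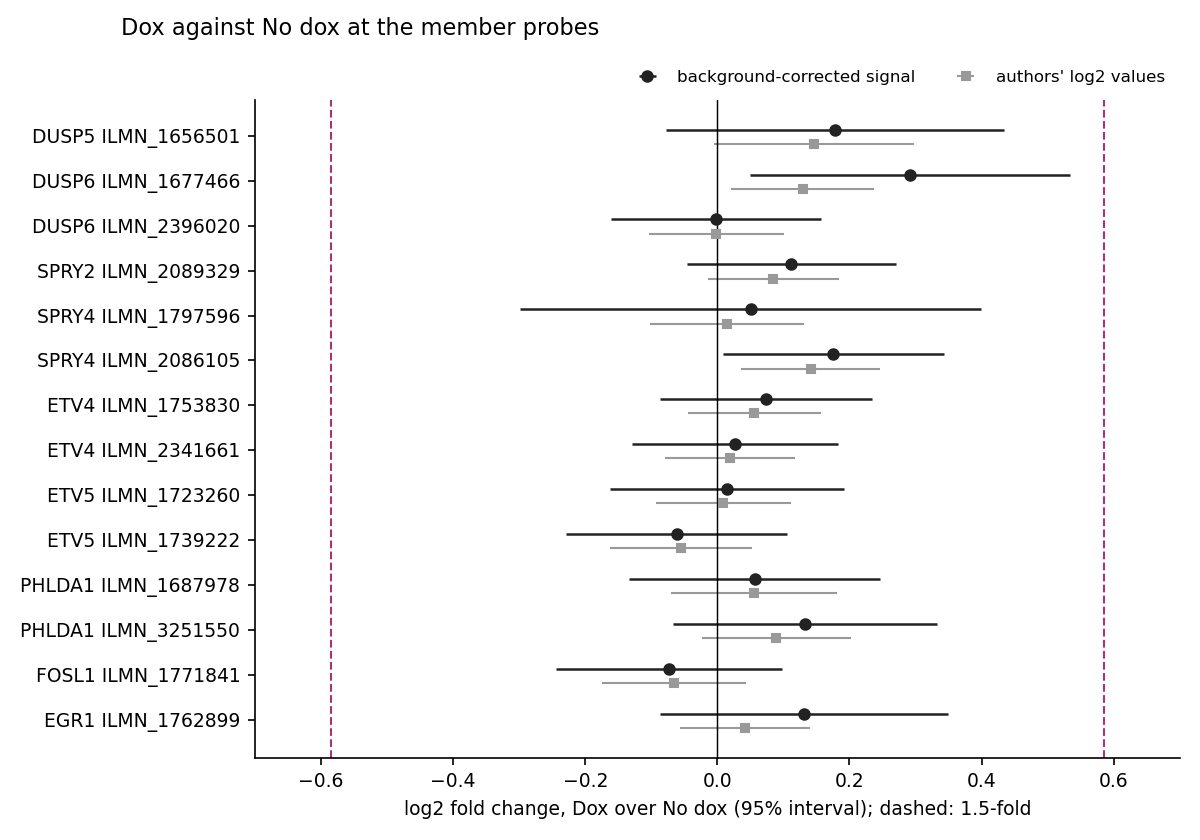
Log2 fold change, Dox over No dox, of each member probe with its 95% interval, from background-corrected signal (black) and from the authors' log2 values (gray); dashed lines mark 1.5-fold. All 14 intervals lie between the dashed lines on both scales, and the largest estimate is 0.29 at DUSP6 ILMN_1677466. At EGR1 and the dim SPRY4 probe, at or near background, the interval does not bound a fold.

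The array with the highest or the lowest signal differed among the 12 well-detected probes. The highest fell more often on a Dox array, of which there were more, and the lowest more often on a No dox array. The same shares over all tested probes were not computed, and some genes enter with 2 probes. These counts are a description only. Dox replicate 3 was the highest array for 4 of these probes, No dox replicate 2 for 3 and Dox replicate 1 for 2. Dox replicates 2 and 4 and No dox replicate 4 were the highest for 1 each. No dox replicate 4 was the lowest array for 5 and No dox replicate 2 for 3, so No dox replicate 2 was often at either end. No dox replicate 3 and Dox replicates 1, 2 and 3 were the lowest for 1 each.

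The wider pathway was described with 6 lists of other genes, drawn up with earlier results of these cells known. The lists held 146 genes, of which 107 had a tested probe with their name; the brightest such probe stood for a gene. Of these 107, 1 was called (0.935%, against 0.134% of all tested probes), and 13 had an unadjusted p under 0.05 (12.1%, against 8.50%). On the authors' log2 values 4 of the 107 were called, where 0.522% of all 19337 tested probes were. The 1 call was UPP1, which the study also called on these arrays. The brightest probe per gene was set against all probes, dim ones included. With lists drawn up after earlier results, these shares cannot be read as an excess.

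No receptor, ligand or kinase of the lists passed the test. Of 13 tested growth factors and receptor tyrosine kinases, 7 were above 0 and 6 below, with a median log2 fold change of 0.00089, 0 called and 0 with an unadjusted p under 0.05. The 4 with the smallest p were EGF (−0.25) and the receptor ERBB3 (−0.18), both near background and detected on 1 and 2 of 7 arrays, VEGFA (0.14) and the receptor MERTK (0.11). EGF was at −0.074 without No dox replicate 3 and −0.38 without No dox replicate 2, and ERBB3 at −0.30 without Dox replicate 1. Of 18 genes of the cascade, which runs from the adaptors upstream of RAS through ERK to the kinases that ERK activates, 7 were above 0 and 11 below (median −0.029). Of these, 0 were called and 2 had an unadjusted p under 0.05, both higher. The cascade genes with the smallest p were RPS6KA2, an RSK kinase downstream of ERK (0.23, adjusted p = 0.477 from limma), PTPN11, the phosphatase SHP2 (0.16, adjusted p = 0.585), the adaptor GRB2 (−0.14) and MAP2K1, the ERK kinase MEK1 (−0.12).

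Other negative regulators of the pathway were also below the threshold. Of 15 tested feedback regulators, 8 were above 0 and 7 below (median 0.024), with 0 called and 0 at an unadjusted p under 0.05. DUSP2 had the lowest value (−0.27, adjusted p = 0.593 from limma), followed by p by DUSP3 (0.14), DUSP16 (−0.10) and the RAS GTPase activator RASA3 (−0.14). Of 17 other ETS factors, 8 were above 0 and 9 below (median −0.015), with 0 called and 0 at an unadjusted p under 0.05. EHF (−0.17), SPDEF (−0.13), FLI1 (0.16) and GABPA (0.13) had the smallest p. EHF was detected on 3 of 7 arrays and FLI1 on 1.

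The lists with larger values were the immediate early genes and the delayed targets. Of 24 tested immediate early genes, 15 were above 0 and 9 below (median 0.043), 0 were called, and 4 higher and 1 lower had an unadjusted p under 0.05. ATF3, a stress-induced factor of the ATF/CREB family, had log2 signals of 6.25, 5.90 and 6.14 in No dox and 6.56, 6.64, 6.65 and 6.58 in Dox, with all Dox arrays above all No dox arrays. Its log2 fold change of 0.51 had an adjusted p of 0.119 from limma. On the authors' log2 values the change was smaller, 0.28, with an adjusted p of 0.0104 (0.00185 to 0.55 over all alternatives). GEM, a small GTP-binding protein, had log2 signals of 7.97, 8.07 and 8.06 in No dox and 8.44, 8.45, 8.41 and 8.37 in Dox, again without overlap. Its log2 fold change of 0.38 had an adjusted p of 0.127 from limma, and on the authors' values it was 0.31 with an adjusted p of 0.00195 (0.00185 to 0.603 over all alternatives). The other immediate early genes named by smallest p were KLF6, a zinc finger factor (0.27, adjusted p = 0.475), and the kinase SGK1 (0.23, adjusted p = 0.533). The 1 lower gene at an unadjusted p under 0.05 was KLF2 (−0.18, adjusted p = 0.587).

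The FOS and JUN genes, which encode the subunits of AP-1 and were singled out after their values were seen, did not share a direction. FOS (0.16), JUN (0.14) and JUND (0.043) had log2 fold changes above 0, and FOSB (−0.14), FOSL2 (−0.12) and JUNB (−0.038) below. Their adjusted p-values from limma ran from 0.664 for JUN to 0.941 for JUNB.

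Of 20 tested delayed targets, 15 were above 0 and 5 below, with a median of 0.095 (0.057 on the authors' log2 values), and 1 was called. At an unadjusted p under 0.05 there were 4 higher and 2 lower. UPP1, an enzyme of uridine salvage, had log2 signals of 8.41, 8.36 and 8.43 in No dox and 9.07, 9.13, 9.19 and 8.97 in Dox. It rose by a log2 fold change of 0.69 (95% interval 0.52 to 0.86, adjusted p = 0.0059 from limma), and the call held in 17 of 19 alternatives. It was lost without No dox replicate 3 (0.67, adjusted p = 0.0508) and with the replicate number as a block (0.69, adjusted p = 0.173), the highest adjusted p of a range that began at 3.17e-08. PHLDA2, an imprinted relative of PHLDA1, had log2 signals of 8.08, 8.12 and 8.23 in No dox and 8.42, 8.47, 8.48 and 8.37 in Dox. Its log2 fold change of 0.29 had an adjusted p of 0.294 from limma, and on the authors' values it was 0.24 with an adjusted p of 0.0244 (0.0237 to 0.638 over all alternatives). SPHK1, which makes sphingosine 1-phosphate (0.21, adjusted p = 0.576), and the hyaluronan receptor CD44 (0.16, adjusted p = 0.578) followed. The 2 lower genes were the ephrin receptor EPHA2 (−0.18, adjusted p = 0.581) and TFPI2, a protease inhibitor (−0.19, adjusted p = 0.587). The 4 list genes called on the authors' values were UPP1, GEM, ATF3 and PHLDA2. The study made its own calls on these same arrays, so none of the 4 is independent evidence.

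**Figure D4:**
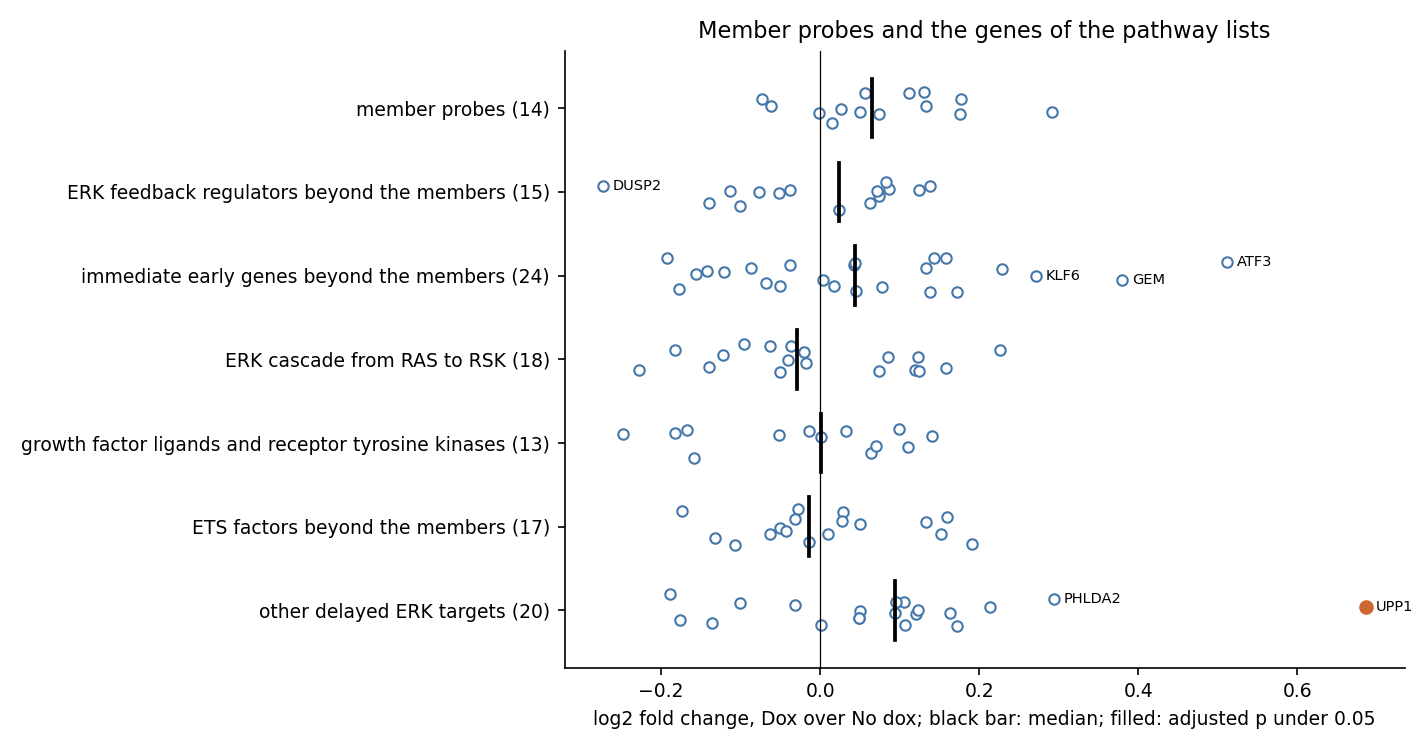
Log2 fold change, Dox over No dox, of the 14 member probes and of the genes of 6 pathway lists (number tested in brackets), with the median as a black bar; a filled point has an adjusted p under 0.05 and genes beyond 0.27 in size are named. UPP1 is the only filled point, and the medians lie between −0.029 and 0.095.

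**Figure D5:**
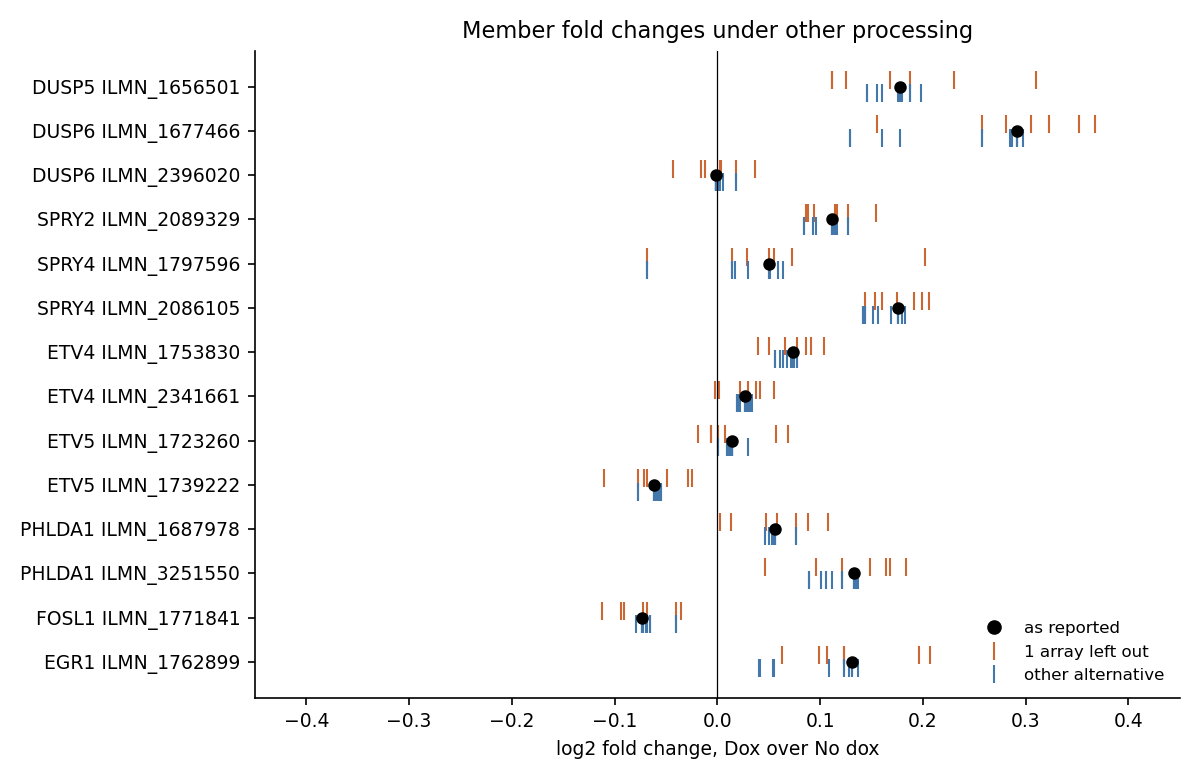
Log2 fold change of each member probe as reported (black), with 1 array left out (orange) and under the other alternatives (blue). DUSP6 ILMN_2396020, the dim SPRY4 probe, ETV4 ILMN_2341661 and ETV5 ILMN_1723260 cross 0 in some of them, and no member is called in any.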

How the data were processed

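The authors deposited 47323 rows of GenomeStudio output, each holding the probe's intensity and its detection p-value on every array. They also deposited log2 values, kept where detection p fell below 0.01 on any array (19337 probes). Their methods name lumi (version not stated) for background correction, the log2 step and quantile normalization. The deposited log2 values differed by at most 0.046 from quantile-normalized log2 signal without background correction, and each of the 7 columns matched its own array best. From the intensities, neqc of limma (version 3.58.1, R 4.3.3; controls inferred from detection p-values, offset 16) gave background-corrected, quantile-normalized log2 signals. These 19337 probes entered a limma fit with a mean per group and empirical Bayes moderation, and Benjamini-Hochberg adjustment ran over all of them. Single probes were also tested by exact permutation over the 35 splits of 3 against 4 arrays (scipy 1.17.1, absolute difference of means).

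Gene names come from the platform annotation of the deposited log2 table, updated through RefSeq gene identifiers; 15060 tested probes had 1 gene name and 4277 did not (2 of these had several). Probes outside that table are unnamed here. The named genes are all member probes and, in each list, the 4 with the smallest p and any called gene; the FOS and JUN genes, KLF2, EPHA2 and TFPI2 were added after their values were seen. The members and lists were chosen with earlier results of these data known. No list was tested as a set. The fit was also run on simulated data with independent probes and no shared array effects. That run checks the code and not the precision of these arrays, which their number limits. Alternatives covered background correction, normalization, the filter, the variance model, the replicate number and each array left out.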

Additional observations from a re-analysis of the deposited data

Results flagged for a closer look

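The 4 Dox arrays of 38 probes (the members and the named list genes) were checked for a lone array far from its group. The limit used applies to groups of 4, so No dox was not covered. Such an array was found at 1 probe, where about 1 in 20 groups would have one by chance. This was ERBB3 in Dox replicate 1, whose gap to the nearest Dox array was 0.834 of the whole Dox range, at a probe detected on 2 of 7 arrays. The members had 0 such arrays in Dox. In No dox, replicate 2 stood apart at DUSP5 (8.51, against 8.11 and 8.11), and replicate 4 at the dimmer DUSP6 probe (5.36, against 5.76 and 5.79).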

How the results depend on the processing

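The count of members called was 0 under all 19 alternatives, with a lowest adjusted p of 0.311 from limma, and the median over the members stayed between 0.048 and 0.099. Some members close to 0 changed sign without a call. DUSP6 ILMN_2396020 had log2 fold changes of 0.0020 with cyclic loess, 0.0053 with median scaling, 0.0028 with array weights and 0.018 with the replicate block and over the same 6 arrays without it, and −0.043 to 0.036 with 1 array left out. The dim SPRY4 probe had −0.068 with the replicate block and over the same 6 arrays without it, and −0.068 to 0.20 with 1 array left out. With 1 array left out, ETV4 ILMN_2341661 ranged from −0.0023 to 0.055 and ETV5 ILMN_1723260 from −0.019 to 0.069. The other 10 member probes kept their sign throughout.

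Over all tested probes, 26 were higher and 0 lower. No background correction gave 76 and 25, normexp without controls 66 and 21, an offset of 50 gave 87 and 40, the authors' values 76 and 25, an intensity trend 93 and 39. The stricter detection filter, which asks for every array of either group, left 2 lower. With 1 array left out the counts ran from 12 to 18 higher and 0 to 1 lower. The higher calls numbered 13, 12 and 17 without No dox replicates 2, 3 and 4, and 16 and 14 without Dox replicates 2 and 4, and the 1 lower call came without No dox replicate 4. The replicate block gave 6 higher, against 18 over the same 6 arrays without it. Arrays sharing a replicate number deviated from their group means with correlations of −0.035, 0.0090 and −0.021, so the numbers were not taken as pairs. Of the 107 list genes, 1 was called, against 4 with no background correction, normexp without controls, an offset of 50, the authors' values or an intensity trend, 3 with the stricter detection filter, 0 with the replicate block, and 0 to 1 with 1 array left out (0 without No dox replicate 3). List medians near 0 were unstable. That of the feedback regulators (0.024) was −0.038 with the stricter detection filter and −0.023 to 0.055 with 1 array left out, that of the cascade (−0.029) was 0.017 without No dox replicate 4, and that of the ETS factors (−0.015) was 0.025, 0.018 and 0.024 without No dox replicates 2 and 3 and Dox replicate 4. Among uncalled genes, SPDEF was at −0.044 without No dox replicate 2, GABPA at 0.037 without No dox replicate 3 and FLI1 at 0.059 without Dox replicate 3. Chips could not be modelled, since their identifiers were not analysed here, and the dim EGR1 and SPRY4 probes limit what could be seen there.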
